A study of Mus musculus with 64 samples.

Results

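A group of 8 genes was followed because their transcripts were lower in microglia labelled KO for RISP than in Het or WT microglia under every condition studied: the receptors Siglece, Clec4a3 and Gpr165, the membrane proteins Tmem176a and Tmem176b, the GTPase Gimap6, the transcription factor Cebpd and the kelch-repeat protein Klhdc8b. They are 8 of 45708 genes in the deposited count table, and all 8 were among the 18413 that passed the filter on low counts. They were chosen by that fall, that is by the counts of KO libraries against control libraries: KO against Het or WT in naive libraries (replicates 1 to 5 and 5 to 11), after cuprizone, and at both stages of PLX3397 treatment. In those 8 comparisons their values are therefore a description and carry no test. The 4 naive libraries numbered 12 and 13 and the old mice were outside those comparisons, although earlier results over all naive libraries were known when the genes were proposed. Het against WT and each treatment against naive are other comparisons, but of the same libraries whose values chose the genes, so their tests are not independent of the choice.

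RISP is the Rieske iron-sulphur protein, encoded by Uqcrfs1, the subunit of respiratory complex III that passes electrons on from ubiquinol toward cytochrome c. Microglia are the resident macrophages of the brain. The genes followed here belong to different families. Siglece binds sialic acids and carries an inhibitory (ITIM) motif, and Clec4a3 belongs to a cluster of C-type lectin receptors of myeloid cells. Gpr165 is an orphan G protein-coupled receptor. Tmem176a and Tmem176b are paired membrane-spanning proteins of intracellular vesicles in antigen-presenting cells, related to the MS4A family. Gimap6 is a GTPase of the immunity-associated GIMAP family, Cebpd encodes C/EBP delta, a transcription factor of inflammatory responses, and Klhdc8b is a kelch-repeat protein found at the midbody of dividing human cells.

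The table holds 64 libraries of microglia sorted from whole brain by CD11b and CD45. Adults given cuprizone, a copper chelator that strips myelin, gave 6 RISP KO and 4 RISP Het libraries. PLX3397 inhibits CSF1R, the receptor microglia need to survive. Adults given it were sampled while microglia were depleted (KO, 2 libraries; Het, 2; WT, 4) and during their return, called repopulation (4 of each genotype). Old naive mice gave 3 Het libraries, and naive adults 13 KO, 13 Het and 5 WT libraries. The allele, the driver of the deletion, doses, days, exact ages and sex are not given in the sources used here, nor is it stated that replicates are separate animals, so p-values measure only the spread between these samples, which may be technical. Het mice keep 1 working copy by their label, and they are the only control for cuprizone, for the later naive replicates and for age.

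The libraries fell into 4 sets that the labels do not name, by the share of counts on the non-coding RNAs Gm26917 and Yam1 and by depth. All naive libraries of replicates 1 to 5 (Het 1 to 4) and all PLX3397 libraries held 0.0688 to 0.276% on these RNAs at 9.32 to 16.3 M counts per library. KO naive 6 to 11 and Het naive 5 to 11 held 3.59 to 5.80% at 6.38 to 11.7 M. KO and Het naive 12 and 13 with the old Het libraries held 4.20 to 13.6% at 15.9 to 24 M, and cuprizone libraries 2.22 to 6.70% at 2.70 to 5.10 M. KO and control were therefore compared only within a set. The naive libraries of the first set can be divided further, with KO 1 to 4 and WT 1 to 4 on 1 side. KO 5, WT 5 and Het 1 to 4 are on the other. KO over Het and Het over WT in naive replicates 1 to 5 therefore rest mostly on libraries from different sides. With this division fitted, 0 of the 8 genes were called in KO over Het there. The protocol names 1 sequencing instrument for untreated KO and WT and another for all other libraries, without saying which library ran where. By that text naive KO differed in instrument from naive Het, naive 12 and 13 included, and treated KO and WT from naive KO and WT, and there instrument cannot be told apart from genotype or treatment. By 4 Y-linked genes 41 libraries were male and 23 female, and all 7 of the deepest set were male. Uqcrfs1 itself followed the labels in each: 5.33 to 9.32 counts per M (CPM) in KO, against 19.0 to 37.7 in Het and 34.4 to 43.9 in WT, in naive replicates 1 to 5. At depletion KO still had 9.10 to 13.5 CPM, against 30.6 to 51.8 for Het and 36.3 to 62.1 for WT, so some Uqcrfs1 RNA remained in the libraries labelled KO. The 11 microglial markers, among them P2ry12, Tmem119 and Cx3cr1, summed to 11837 to 40583 CPM over all libraries. Sums of some markers of other cells are given with the results, not all that differed.

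The 8 genes lie on 5 chromosomes of GRCm38, and 4 of them on chromosome 6 (GENCODE M21 coordinates). Tmem176a (ENSMUSG00000023367, 6:48840919-48847071, plus strand) and Tmem176b (ENSMUSG00000029810, 6:48833818-48841496, minus strand) stand head to head and overlap by 578 bp. Gimap6 (ENSMUSG00000047867, 6:48701582-48708225, minus strand) lies 125593 bp from Tmem176b, in the cluster of 8 GIMAP genes. Clec4a3 (ENSMUSG00000043832, 6:122952515-122969875, plus strand) is in the lectin receptor cluster farther along that chromosome. Gpr165 (ENSMUSG00000031210) is at X:96713441-96719388 on the plus strand, Cebpd (ENSMUSG00000071637) at 16:15887286-15891031 on the plus strand, Siglece (ENSMUSG00000030474) at 7:43651070-43660161 on the minus strand, and Klhdc8b (ENSMUSG00000032609) at 9:108447636-108461581 on the minus strand. Cebpd shares 1808 bp with Spidr on the opposite strand and Klhdc8b shares 1055 bp with Ccdc71, and the strand setting of the counting is not given in the sources used here, so reads there may be shared.

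The promoter windows of the Tmem176 pair are shown because their transcripts went together more closely than any other pair below, and that of Gpr165 because it had the TATAAA match nearest to a start site. They are RefSeq sequences of build GRCm38.p6, from 250 bases before to 50 after a start site, written 5′ to 3′ on the gene's own strand. Capitals in the first 2 mark the 155 bases (6:48841233-48841387) that both windows hold, on opposite strands, and capitals in the third mark TATAAA.
Tmem176a (6:48841233-48841532, plus strand): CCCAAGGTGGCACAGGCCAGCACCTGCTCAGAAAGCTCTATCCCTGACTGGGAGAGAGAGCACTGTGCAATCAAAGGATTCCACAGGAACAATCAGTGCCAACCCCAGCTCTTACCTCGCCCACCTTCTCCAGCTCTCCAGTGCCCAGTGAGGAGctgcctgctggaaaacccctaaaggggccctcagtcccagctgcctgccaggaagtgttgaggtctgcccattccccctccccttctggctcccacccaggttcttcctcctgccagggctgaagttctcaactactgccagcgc
Tmem176b (6:48841088-48841387, minus strand): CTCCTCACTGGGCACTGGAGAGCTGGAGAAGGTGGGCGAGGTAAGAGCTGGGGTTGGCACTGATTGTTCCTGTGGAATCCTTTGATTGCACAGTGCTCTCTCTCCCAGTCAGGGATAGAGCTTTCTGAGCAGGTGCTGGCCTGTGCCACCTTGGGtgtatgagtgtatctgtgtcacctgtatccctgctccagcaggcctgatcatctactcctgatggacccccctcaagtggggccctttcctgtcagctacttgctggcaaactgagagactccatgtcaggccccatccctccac
Gpr165 (X:96713218-96713517, plus strand): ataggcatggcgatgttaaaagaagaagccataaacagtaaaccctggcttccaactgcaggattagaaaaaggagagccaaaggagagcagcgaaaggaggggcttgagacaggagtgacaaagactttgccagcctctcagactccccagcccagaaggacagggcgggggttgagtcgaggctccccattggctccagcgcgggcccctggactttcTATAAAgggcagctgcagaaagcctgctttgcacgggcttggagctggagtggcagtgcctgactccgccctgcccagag
The start sites of these Tmem176 windows are 346 bp apart, with the shared bases between them; RefSeq has further windows for both genes, and 1 of the other Tmem176b start sites lies within the shared bases. RefSeq windows were matched for 7 of the 8 genes, with 12 windows in all; none was matched for Cebpd. On either strand, none of the 12 held GAGGAAGT (the PU.1 core, in 3.2% of 32851 mouse promoter windows), TTGCGCAA (the C/EBP palindrome, in 0.183%) or TGATGNAA (the C/EBP-ATF element, in 3.97%). TATAAA was in 3 of them, against 13.6% of all windows: at position -30 from the start site of Gpr165, -219 from that of Gimap6 and -188 from that of Klhdc8b, with no overlap between motifs. These matches describe letters, not binding.

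The test of KO against Het that the choice did not use came from the naive libraries numbered 12 and 13. All 8 genes were lower in KO there, by 1.87-fold for Siglece to 10.8-fold for Klhdc8b, and in each of them both KO libraries were below both Het libraries. Klhdc8b had 1.95 and 4.13 CPM in KO, against 30.9 and 35.0 CPM in Het (log2 fold change -3.43 ± 0.71 SE, adjusted p = 0.00824). Gpr165 had 6.45 and 6.54 CPM in KO, against 41.2 and 49.4 CPM in Het (-2.80 ± 0.58, adjusted p = 0.00824). These had the steepest falls of the 8, and Gpr165 hardly differed between its KO libraries. The Tmem176 pair fell by similar amounts: Tmem176a had 7.87 and 9.27 CPM in KO, against 43.1 and 44.5 CPM in Het (-2.35 ± 0.40, adjusted p = 0.000527), and Tmem176b 54.9 and 62.2 CPM in KO, against 284 and 273 CPM in Het (-2.25 ± 0.32, adjusted p = 5.29e-05).

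The remaining 4 fell by less. Gimap6 had 8.87 and 10.5 CPM in KO, against 35.4 and 26.5 CPM in Het (-1.67 ± 0.40, adjusted p = 0.0319), and Clec4a3 had 14.9 and 13.5 CPM in KO, against 28.5 and 29.5 CPM in Het (-1.03 ± 0.22, adjusted p = 0.00936). Cebpd had 38.1 and 53.1 CPM in KO, against 90.3 and 85.1 CPM in Het (-0.94 ± 0.23, adjusted p = 0.036), and Siglece had 41.9 and 51.3 CPM in KO, against 91.2 and 83.4 CPM in Het (-0.91 ± 0.21, adjusted p = 0.0254). Both KO libraries of each gene stayed well under Het. The p-values are from edgeR's quasi-likelihood test, two-sided, with Benjamini-Hochberg adjustment over all 18413 genes and a spread shared by all 64 libraries; of all genes tested, 0.223% were called lower and 21.3% had both KO libraries below both Het libraries. With only the 4 libraries compared, Cebpd (adjusted p = 0.0967), Siglece (0.0636) and Clec4a3 (0.0653) were no longer called and 5 genes were; without 1 library, the number called was 1 (without KO 12), 3 (without KO 13), 4 (without Het 12) and 2 (without Het 13). The microglial markers summed to 17984 to 19543 CPM in KO, against 19730 to 22613 CPM in Het, and the border macrophage markers to 878 to 1046 CPM in KO, against 1029 to 1280 CPM in Het. None of the 11 microglial and 11 border macrophage markers was called in that comparison. The 15 dissociation stress genes, immediate early genes such as Fos and Jun that rise while tissue is taken apart, summed to 1194 to 1479 CPM in KO, against 2259 to 2844 CPM in Het, also with none called. Oligodendrocyte markers summed to 273 to 338 CPM in KO, against 401 to 618 CPM in Het, and neuron markers to 15.4 to 19.4 CPM in KO, against 7.98 to 9.61 CPM in Het. In simulated data this comparison recovered 12% of 2-fold and 65% of 4-fold changes, so markers that were not called may still differ. The part of any of these marker sums in the falls was not tested. In bulk libraries, fewer cells of a type and less RNA per cell cannot be told apart.

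**Figure D1:**
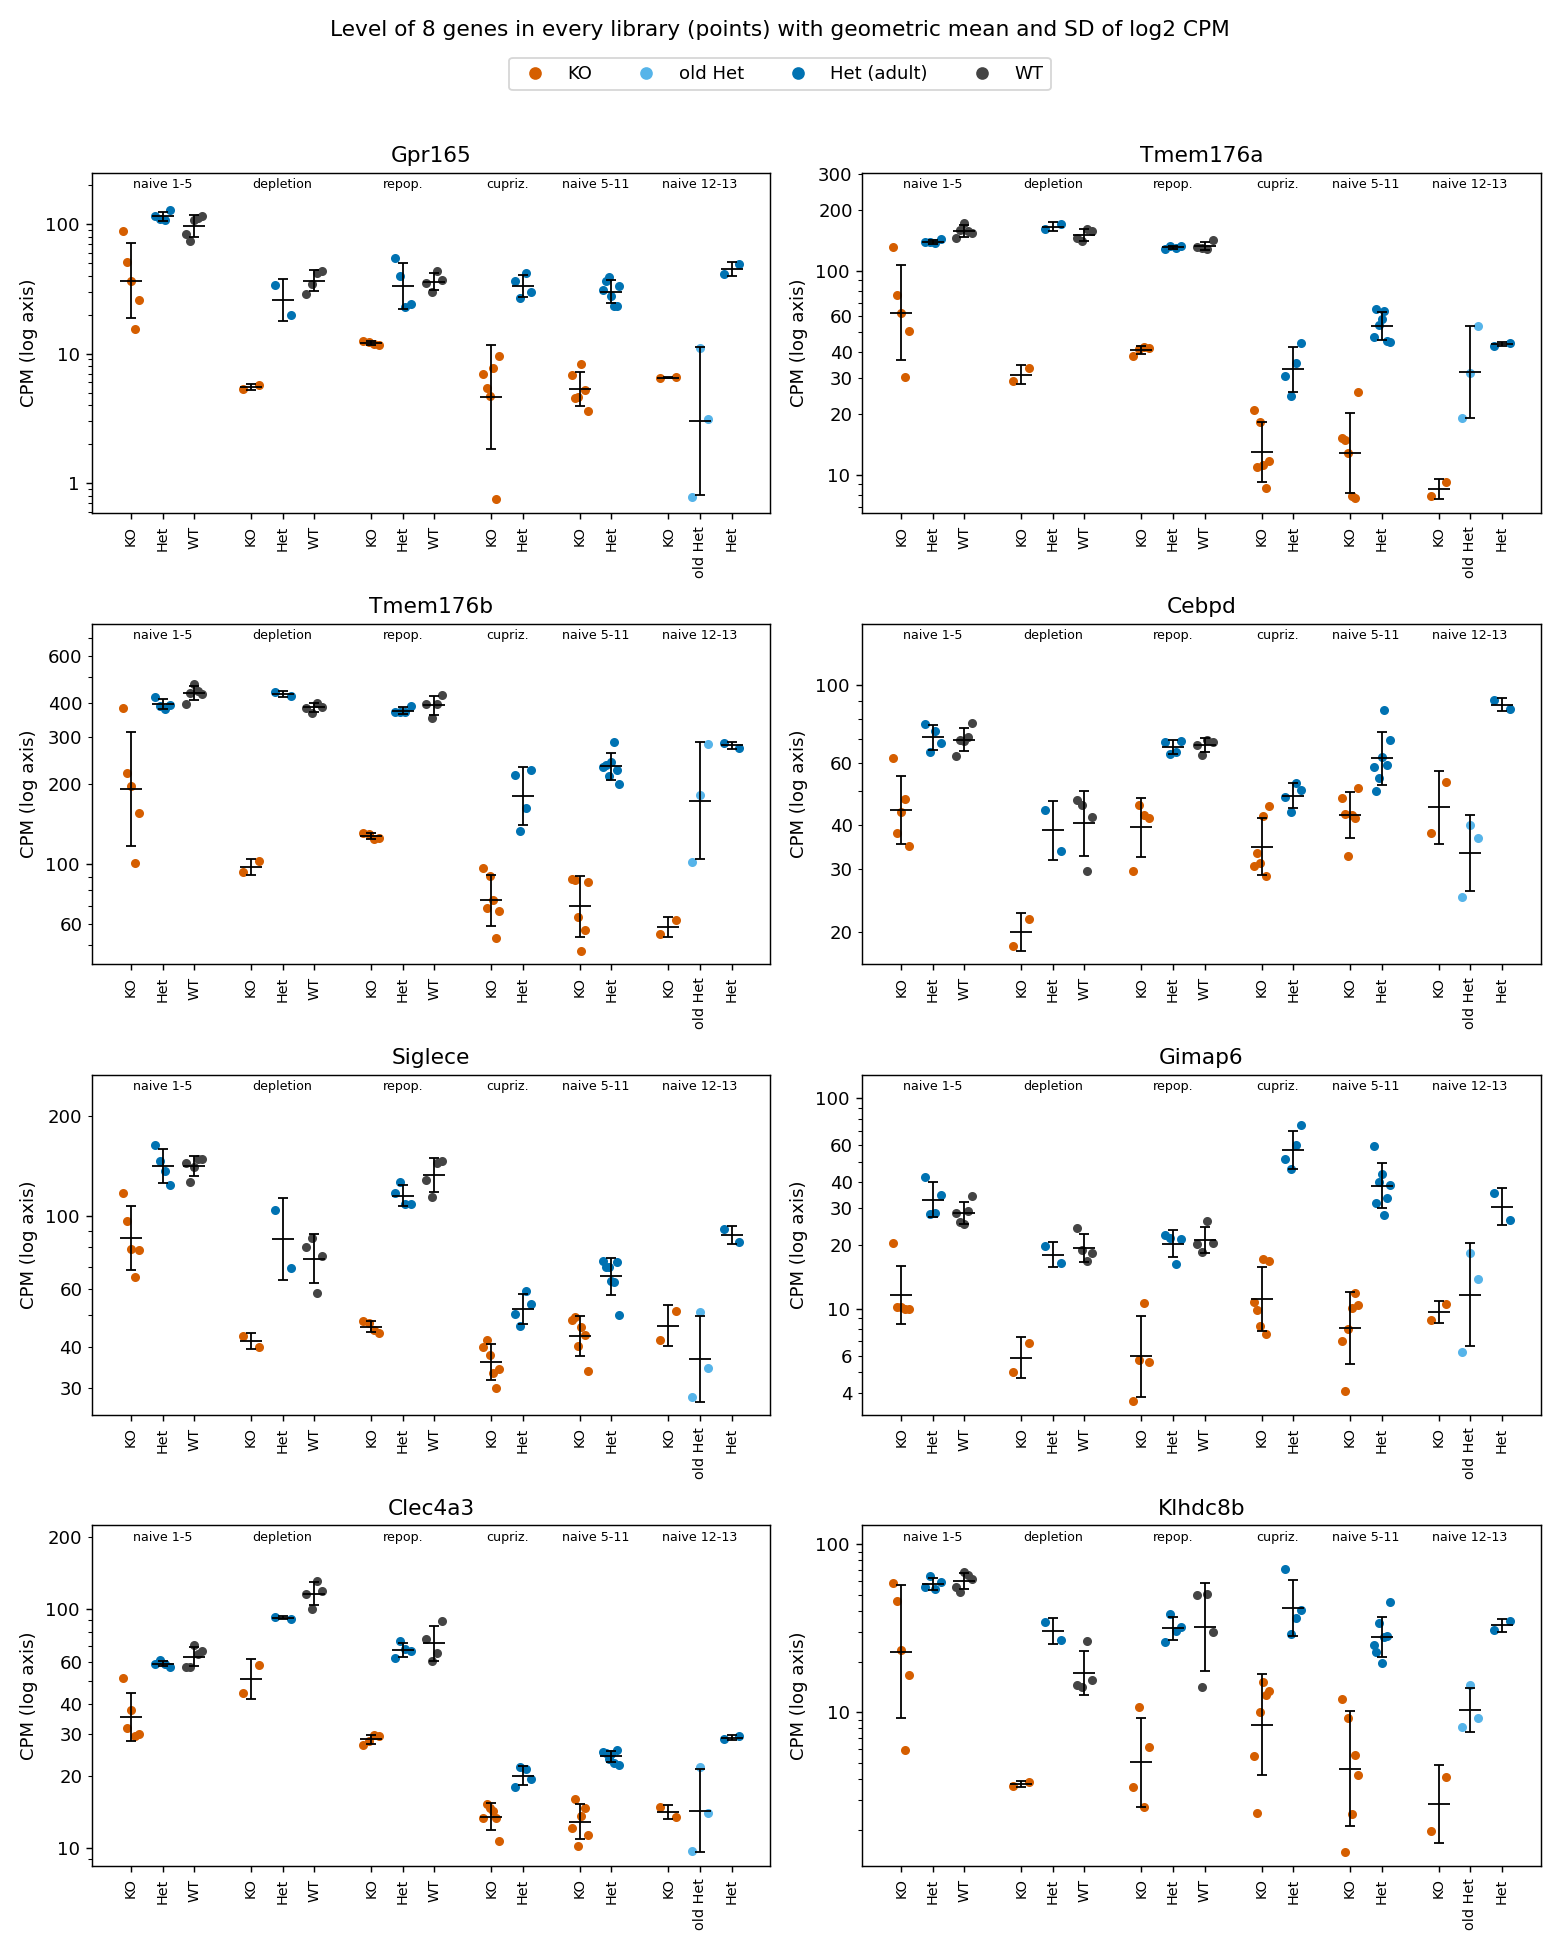
CPM of each gene (log axis) in every library, by genotype within each set of libraries; points are libraries, bars the geometric mean and the SD of log2 CPM. KO libraries lie under Het and WT libraries in nearly all panels, the highest naive KO point of replicates 1 to 5 being replicate 1, and old Het libraries lie under adult Het ones for Gpr165, Cebpd, Siglece, Gimap6, Clec4a3 and Klhdc8b.

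In the comparisons that chose the genes, the size of the difference varied between genes. Log2 fold changes of Cebpd ran from -0.46 to -1.04, of Clec4a3 from -0.56 to -1.35 and of Siglece from -0.53 to -1.53, while Gpr165, the Tmem176 pair, Gimap6 and Klhdc8b reached larger differences, down to -3.03 for Klhdc8b. Each of the 8 had a log2 fold change below 0 in all 8 comparisons, which the choice fixed. Over the 8 genes the median log2 fold change was -1.02 (KO over WT) and -0.93 (KO over Het) in naive replicates 1 to 5, and -1.83 in the later naive replicates. It was -1.31 after cuprizone, -1.88 over Het and -1.85 over WT at depletion, and -1.55 over Het and -1.61 over WT at repopulation. Medians of all genes tested were between 0.00 and 0.03. The values over Het and over WT in 1 condition share their KO libraries.

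Among the receptors, Siglece had 117, 96.4, 79.3, 65.1 and 78.5 CPM in naive KO 1 to 5, against 163, 147, 136 and 124 CPM in Het 1 to 4 and 145, 126, 140.1, 148 and 149 CPM in WT 1 to 5. The groups did not overlap. At repopulation its KO libraries were close together at 47.7, 47.3, 44.8 and 44.1 CPM, against 117, 126, 108 and 108 CPM in Het and 128, 113, 145 and 146 CPM in WT. That gave its largest differences, -1.32 ± 0.15 over Het and -1.53 ± 0.15 over WT. After cuprizone it had 30.1 CPM at the lowest, 36.0 at the median and 41.8 at the highest in KO, against 50.4, 46.2, 58.9 and 53.8 CPM in Het (-0.53 ± 0.14), again without overlap.

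Clec4a3 had 51.4, 31.9, 37.8, 29.4 and 30.0 CPM in naive KO 1 to 5, against 59.1, 60.9, 58.9 and 57.4 CPM in Het and 57.4, 57.4, 70.5, 64.7 and 66.8 CPM in WT. At depletion it had 44.6 and 58.5 CPM in KO, against 93.0 and 91.1 CPM in Het and 116, 100.3, 131 and 119 CPM in WT. The mean of Clec4a3 at depletion was above that in naive and repopulation libraries in each genotype, and KO stayed below both controls there (-0.84 ± 0.21 over Het, -1.18 ± 0.19 over WT). At repopulation it had 27, 28.0, 29.7 and 29.4 CPM in KO, against 62.2, 73.4, 67.8 and 66.5 CPM in Het and 75.2, 60.4, 65.5 and 89.2 CPM in WT. Every KO library of Clec4a3 was below every control library of the same condition in these comparisons.

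Gpr165 had 88.6, 51.2, 36.6, 15.4 and 25.9 CPM in naive KO 1 to 5, against 115, 110.1, 107 and 129 CPM in Het and 83.2, 74.3, 108, 112 and 114 CPM in WT. The 5 KO libraries spanned a wide range, and KO 1 was inside that of WT. In later naive libraries it had 3.59 CPM at the lowest, 4.90 at the median and 8.31 at the highest in KO 6 to 11, against 23.2, 31.0 and 38.9 CPM in Het 5 to 11 (-2.46 ± 0.34). After cuprizone 1 KO library was at 0.758 CPM, from 3 counts, and the other 5 at 4.72 to 9.52 CPM, against 36.5, 26.8, 41.7 and 30.0 CPM in Het (-2.53 ± 0.39). There the groups were far apart. At depletion it had 5.35 and 5.73 CPM in KO, against 33.8 and 19.9 CPM in Het and 28.9, 34.4, 41.7 and 43.2 CPM in WT.

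The vesicle proteins Tmem176a and Tmem176b kept Het and WT levels close together and KO levels low. At repopulation Tmem176a had 38.1, 41.5, 42.3 and 42.0 CPM in KO, against 128, 132, 130.5 and 133 CPM in Het and 132, 129.6, 129 and 142 CPM in WT. Tmem176b had 130.8, 130.03, 125 and 125 CPM in KO there, against 371, 369, 371 and 391 CPM in Het and 397, 352, 397 and 429 CPM in WT. In both, replicates were close together and the KO difference was of about the same size (-1.68 ± 0.27 and -1.55 ± 0.22 over Het). At depletion Tmem176a had 28.8 and 33.5 CPM in KO, against 160.1 and 171 CPM in Het and 145, 140.4, 161 and 158 CPM in WT, and Tmem176b 93.4 and 103 CPM in KO, against 440.3 and 424 CPM in Het and 383, 369, 402 and 389 CPM in WT. Control levels at depletion were near those of naive libraries, while KO levels were at or near the lower end of naive KO. After cuprizone Tmem176a had 8.59, 11.4 and 20.9 CPM (lowest, median, highest) in KO, against 30.6, 24.3, 35.4 and 44.4 CPM in Het (-1.32 ± 0.26).

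Gimap6 had 20.5, 10.2, 10.2, 10.0 and 10.0 CPM in naive KO 1 to 5, against 42.4, 28.1, 28.6 and 34.7 CPM in Het and 28.4, 25.9, 25.3, 29.3 and 34.3 CPM in WT. After cuprizone it had 7.58, 10.3 and 17.2 CPM (lowest, median, highest) in KO, against 51.3, 46.2, 60.2 and 74.4 CPM in Het (-2.30 ± 0.26). No KO library of Gimap6 reached any control library of the same condition and set. Klhdc8b was spread widely. It had 59.0, 46.2, 23.6, 5.94 and 16.7 CPM in naive KO 1 to 5, against 55.4, 64.8, 53.8 and 59.7 CPM in Het and 55.5, 52.0, 68.2, 65.6 and 62.5 CPM in WT. At repopulation it had 3.56, 10.7, 2.71 and 6.24 CPM in KO, against 26.3, 38.6, 30.5 and 32.3 CPM in Het and 50.1, 14.0, 50.8 and 30.1 CPM in WT. WT libraries of Klhdc8b were themselves far apart there, but the lowest stood above every KO library.

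Cebpd, the transcription factor, had 62.1, 38.0, 43.5, 47.3 and 34.8 CPM in naive KO 1 to 5, against 77.5, 64.6, 73.8 and 68.6 CPM in Het and 62.8, 69.5, 69.5, 71.0 and 77.8 CPM in WT (-0.66 ± 0.15 over Het, -0.63 ± 0.14 over WT). In the later naive set it had 32.7, 42.8 and 50.9 CPM (lowest, median, highest) in KO, against 49.9, 59.2 and 84.9 CPM in Het, and after cuprizone 28.8, 32.3 and 45.5 CPM in KO, against 48.0, 43.7, 52.5 and 50.3 CPM in Het. Those were the 2 sets in which a KO library of Cebpd overlapped Het. At depletion it had 18.2 and 21.8 CPM in KO, against 44.3 and 33.8 CPM in Het and 47.2, 45.8, 29.7 and 42.1 CPM in WT, its largest difference (-0.97 ± 0.23 over Het, -1.04 ± 0.21 over WT). Spidr, which overlaps Cebpd on the other strand, was higher in KO 6 to 11 than in Het (0.43 ± 0.13, edgeR adjusted p = 0.0215), the opposite direction.

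Counts of the members called in these comparisons follow from the choice and are read here for nothing. Of the 8, 6 were called lower over WT and 7 over Het in naive replicates 1 to 5, where 0.787% and 1.25% of all genes were. In the later naive replicates and after cuprizone 8 and 8 were called, where 6.07% and 5.83% of all genes were. At depletion 8 over Het and 7 over WT were called (0.293% and 0.516% of all genes), and at repopulation 8 and 8 (2.48% over Het, 2.53% over WT). The genes are not the whole of their kind: 1042 genes tested were below 0 in all 8 comparisons, and 24 of them were called in at least 7. Those 24 include Uqcrfs1 and 7 of the 8 genes, all but Klhdc8b, and among the others the guanylate-binding protein genes Gbp3, Gbp5 and Gbp7, Lrba, Ctnnd2, Tm6sf1 and Upk1b. In 14 genes every KO library was below every control library in each of the 8 comparisons, and Clec4a3, Gimap6, Siglece and Tmem176a were among them.

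**Figure D2:**
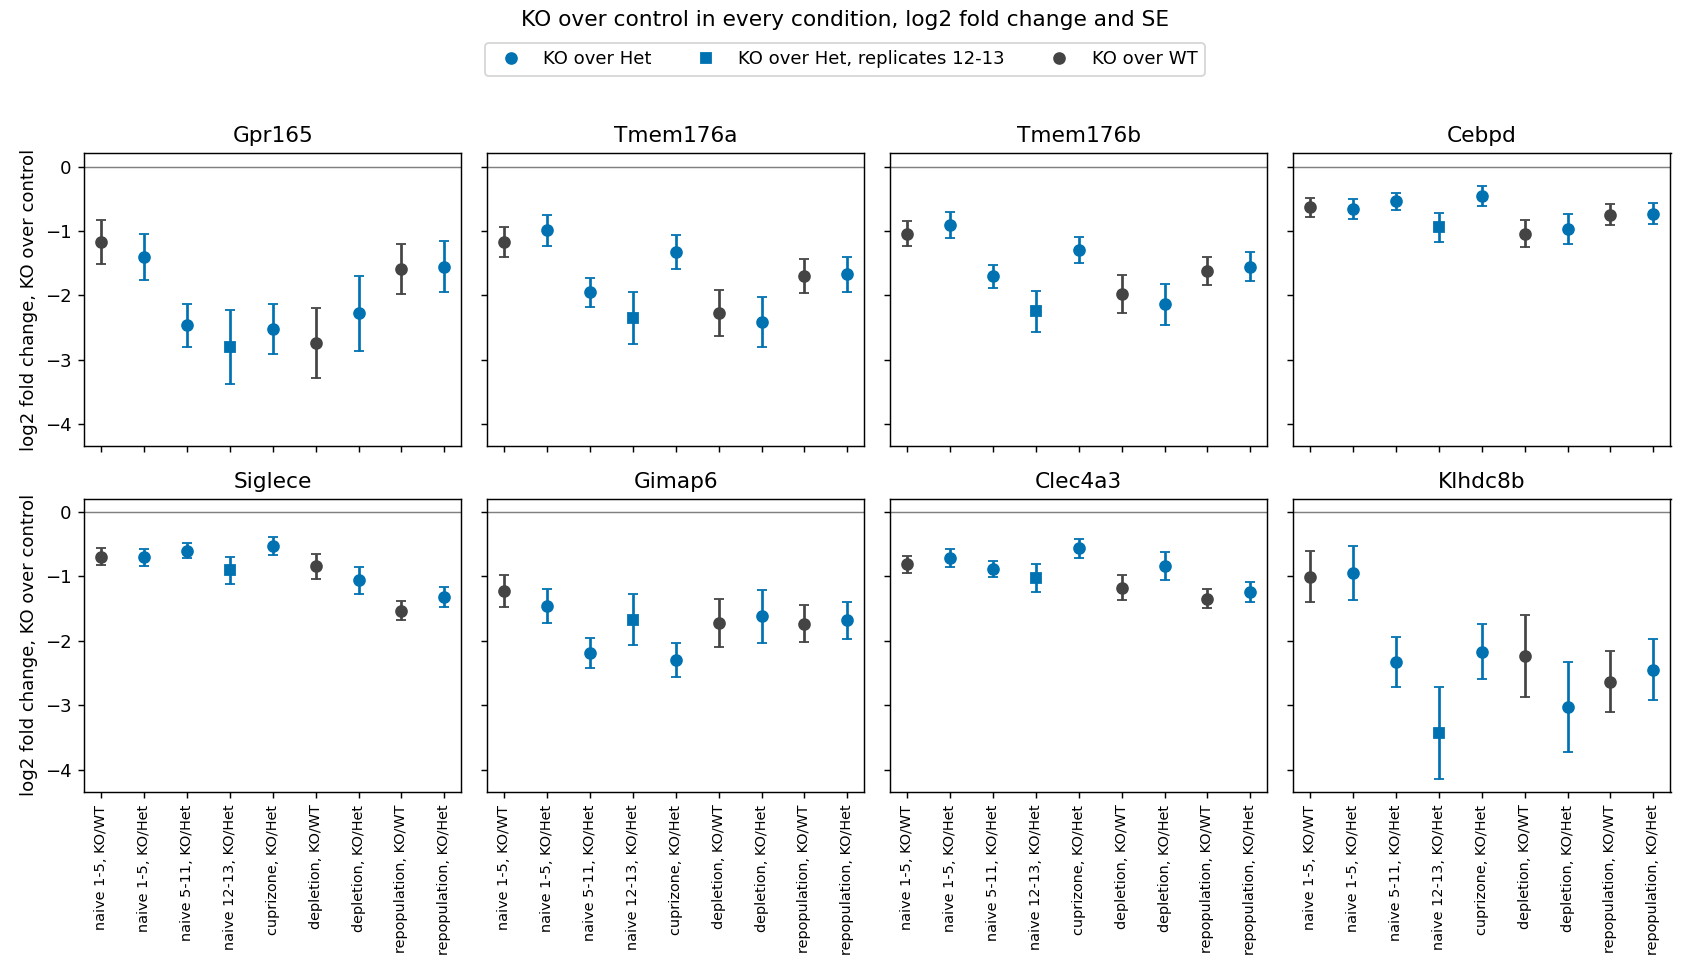
Log2 fold change of KO over Het (blue; square for replicates 12 and 13) and over WT (grey) for each gene in each comparison; bars are standard errors. Cebpd, Siglece and Clec4a3 stay between -0.46 and -1.53, while Gpr165, Tmem176a, Tmem176b, Gimap6 and Klhdc8b reach -2.25 or lower.

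The naive KO library numbered 1 stood apart from the other KO libraries of its set. In 8 of 8 genes it was above each of KO 2 to 5, and for Gpr165, Tmem176b and Klhdc8b it was inside the range of the Het and WT libraries. KO 2 to 5 were below all 9 control libraries in 8 of 8 genes, a separation that the choice of genes favoured. The share of all genes with either pattern was not counted, so neither is read as particular to these genes. Its Uqcrfs1 level, 8.65 CPM, was within the 5.33 to 9.32 CPM of the other 4 KO libraries, so the label check did not separate it. Its border macrophage markers summed to 1730 CPM, against 830 to 1695 CPM in KO 2 to 5, and its monocyte markers to 19.4 CPM, against 5.85 to 11.1 CPM. Without it, the median log2 fold change of the 8 genes was -1.40 over WT and -1.31 over Het.

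Sums of markers also differed between KO and controls, in this set and others. The 11 border macrophage markers, among them Mrc1, Cd163 and Lyve1, summed to 830 to 1730 CPM in KO, against 1882 to 2553 CPM in Het libraries and 1951 to 3319 CPM in WT libraries. The 7 monocyte markers summed to 5.85 to 19.4 CPM in KO, against 22.8 to 26.8 CPM in Het libraries and 29.0 to 49.1 CPM in WT libraries. Of these, 1 of the 11 and 1 of the 7 were called lower in KO than in WT. The border macrophage sums overlapped in the later naive set (KO 490 to 1140 CPM, Het 725 to 1260), after cuprizone (KO 343 to 791, Het 589 to 1158) and at repopulation (KO 412 to 707, Het 688 to 1013, WT 510 to 952). At depletion the border macrophage sums did not overlap, at 354 to 591 CPM in KO, against 686 to 1344 in Het and 623 to 1066 in WT. Monocyte sums at depletion were the other way, at 8.99 to 57.6 CPM in KO, against 5.67 to 8.47 in Het and 7.32 to 8.18 in WT. Lymphocyte markers summed to 18.7 to 19.9 CPM in KO at depletion, against 27.6 to 30.3 in Het and 30.6 to 41.1 in WT, and to 17.3 to 21.9 CPM in KO at repopulation, against 25.1 to 33.4 in Het and 27.4 to 38.0 in WT. Microglial marker sums were also lower in every KO library there, at 26062 to 27349 CPM in KO at depletion, against 30933 to 36278 in Het and 31733 to 33413 in WT, and at 31085 to 32398 CPM in KO at repopulation, against 33054 to 37784 in Het and 34644 to 40583 in WT. Dissociation stress genes were called lower in KO for 13 of 15 genes in the later naive set and in 12 of 15 after cuprizone, and in 0 of 15 in naive replicates 1 to 5. Their sums were 1308 to 3571 CPM in KO and 5425 to 13459 CPM in Het in the later naive set. After cuprizone they were 1742 to 15296 CPM in KO and 20916 to 44421 CPM in Het. Endothelial markers in naive replicates 1 to 5 had a median sum of 367 CPM in KO, against 685 in Het and 619 in WT, with overlap. The part of these markers in the levels of the 8 genes was not tested.

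**Figure D3:**
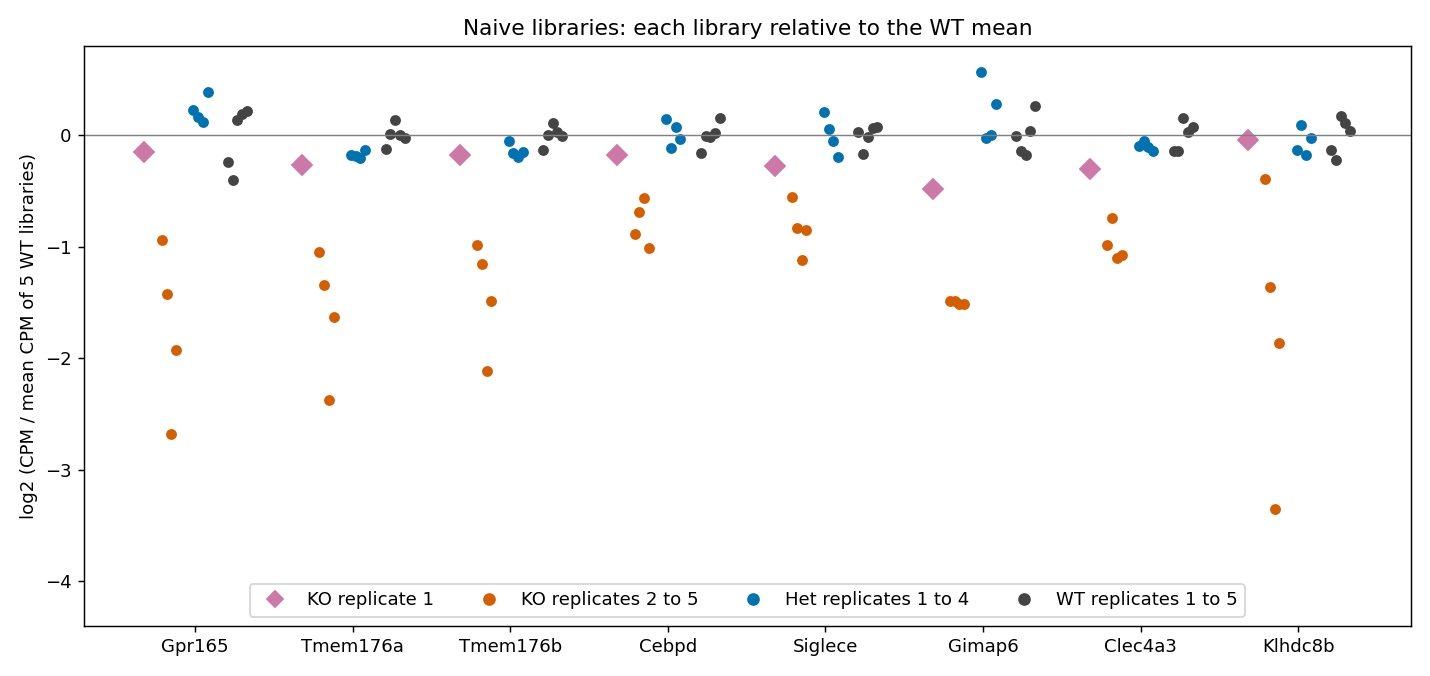
Each naive library of replicates 1 to 5 as log2 of its CPM over the mean CPM of the 5 WT libraries. KO replicate 1 (diamonds) lies above KO replicates 2 to 5 in each of the 8 genes. KO 2 to 5 lie below all Het and WT libraries, which the choice of genes favoured.

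Het was set against WT to ask whether 1 lost copy of Uqcrfs1 went with any change in these genes. None of the 8 was called in naive replicates 1 to 5, at depletion or at repopulation by edgeR or by DESeq2, and none had an unadjusted p under 0.05 by edgeR, while 1463, 1249 and 652 of all genes did. Log2 fold changes of Het over WT were between -0.18 and 0.23 in naive libraries, -0.46 and 0.79 at depletion and -0.21 and -0.02 at repopulation. Of all genes tested, 0.0217%, 0.00543% and 0.0% were called in either direction. Uqcrfs1 itself was lower in Het by log2 values of -0.64, -0.19 and -0.83 without being called (edgeR adjusted p = 0.41, 0.967 and 0.831). A change of that size in the 8 genes could therefore also go uncalled. The widest value was that of Klhdc8b at depletion, with 34.4 and 26.8 CPM in Het, against 14.4, 14.1, 26.6 and 15.5 CPM in WT (0.79), where the lowest Het and the highest WT library were close.

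Several of the genes were at other levels at depletion than in naive libraries in the controls too. In WT, as in KO, instrument cannot be told apart from treatment here. In WT, 4 of the 8 were lower at depletion than in naive libraries and 1 was higher, where 1.46% and 1.42% of all genes were. Siglece had 80.4, 85.5, 58.2 and 75.2 CPM at depletion, against 145, 126, 140.1, 148 and 149 CPM in naive WT (-0.92 ± 0.14, adjusted p = 1.66e-05), and Cebpd 47.2, 45.8, 29.7 and 42.1 CPM at depletion, against 62.8 to 77.8 CPM in naive WT (-0.77 ± 0.16, adjusted p = 0.00125). Gpr165 (-1.41 ± 0.37, adjusted p = 0.0195) and Klhdc8b (-1.78 ± 0.44, adjusted p = 0.012) fell as well. Clec4a3 rose, with 116, 100.3, 131 and 119 CPM at depletion, against 57.4 to 70.5 CPM in naive WT (0.88 ± 0.14, adjusted p = 3.09e-05). The groups of Siglece, Cebpd, Clec4a3, Gpr165, Klhdc8b and Gimap6 did not overlap. The share of all genes without overlap is not given for this comparison, so nothing is read from that. Tmem176a (-0.06) and Tmem176b (-0.18) were not called in WT, nor was Gimap6 (-0.55, adjusted p = 0.338).

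In KO, 5 of the 8 were lower at depletion than in naive libraries (0.668% of all genes were): Gpr165 (-2.97 ± 0.55, adjusted p = 0.000581), Klhdc8b (-3.01 ± 0.65, 0.00524), Cebpd (-1.17 ± 0.21, 0.000306), Siglece (-1.07 ± 0.19, 0.000242) and Tmem176b (-1.11 ± 0.27, 0.0198). Clec4a3 was 0.51 ± 0.17 higher without being called (adjusted p = 0.163). In Het, Gpr165 (-2.10 ± 0.51, 0.0089), Cebpd (-0.86 ± 0.21, 0.00725) and Siglece (-0.72 ± 0.19, 0.0146) were lower and Clec4a3 (0.64 ± 0.18, 0.0247) higher (2.42% and 2.69% of all genes). Only 2 KO and 2 Het libraries were made at depletion. When only the libraries compared were fitted, none of the 8 was called in KO. With naive replicates 1 to 5 divided further, or without Het depletion 2, none was called in Het, and without KO depletion 1 or 2, 1 or 2 were called in KO. Without WT depletion 1 or 2, Gpr165 and Klhdc8b were not called in WT. Border macrophage markers were called lower at depletion in 10 of 11 cases in WT, 3 of 11 in KO and 8 of 11 in Het. Endothelial markers in WT summed to 240 to 575 CPM at depletion, against 584 to 819 CPM in naive libraries. The part of these markers was not tested.

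At repopulation Gpr165 was below naive levels in each genotype. It had 12.5, 12.2, 11.8 and 11.5 CPM at repopulation in KO, against 15.4 to 88.6 CPM in naive KO (-1.86 ± 0.38, edgeR adjusted p = 0.000995). Het had 54.5, 39.5, 23.1 and 24.2 CPM, against 107 to 129 CPM in naive Het (-1.70 ± 0.38, 0.00221), and WT had 35.1, 29.8, 43.1 and 36.8 CPM, against 74.3 to 114 CPM in naive WT (-1.44 ± 0.37, 0.0123). In no genotype did the groups overlap. Gpr165 was the 1 gene of the 8 called in WT and in Het, where 1.09% and 2.23% of all genes were called lower. In KO, 5 were called lower (1.04% of all genes): besides Gpr165, Klhdc8b (-2.37 ± 0.46, 0.00048), Siglece (-0.92 ± 0.14, 2.02e-05), Tmem176b (-0.73 ± 0.21, 0.0379) and Gimap6 (-0.93 ± 0.27, 0.045). Siglece in WT at repopulation was near naive levels, with 128, 113, 145 and 146 CPM, against 126 to 149 CPM in naive WT (-0.09), but KO had 44.1 to 47.7 CPM at repopulation, against 65.1 to 117 CPM in naive KO. Without naive KO 1, or without KO repopulation 1, 2 or 4, only Gpr165, Siglece and Klhdc8b were called in KO; Tmem176b was also lost without naive KO 2 or KO repopulation 3. With naive replicates 1 to 5 divided further, Gpr165 was not called in Het (adjusted p = 0.127). Without WT repopulation 2, Gpr165 was not called in WT. With only the libraries compared, 2 genes were called in KO, 2 in WT and 4 in Het. Border macrophage markers were called lower at repopulation in 9 of 11 cases in KO, 10 in Het and 11 in WT.

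How far the KO difference itself varied with treatment is given as values alone, because each of the differences compared was used in choosing the genes. At depletion the KO minus WT difference of the 8 genes was further below 0 than in naive libraries, by log2 values of -0.15 to -1.57. At repopulation the same differences ran from -0.12 to -1.63, with Siglece at -0.83 and Klhdc8b at -1.63. Without naive KO 1 the medians over the 8 genes were -0.45 at depletion and -0.23 at repopulation, against -0.71 and -0.53 with it. For cuprizone against the later naive libraries the KO minus Het differences changed by -0.11 to 0.63.

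Cuprizone libraries were set against KO naive 6 to 11 and Het naive 5 to 11, and cuprizone and depth cannot be told apart there. None of the 8 was called by edgeR or DESeq2 in KO (-0.29 to 0.76) or in Het (-0.68 to 0.60), where 5.63% and 9.24% of all genes were called. By edgeR, 2 of the 8 in KO and 4 in Het had an unadjusted p under 0.05. Of all 18413 genes, 3920 in KO and 4419 in Het did. Gimap6 had 51.3, 46.2, 60.2 and 74.4 CPM in cuprizone Het, against 28.0, 38.9 and 59.7 CPM (lowest, median, highest) in naive Het (0.56), with overlap. Tmem176a had 30.6, 24.3, 35.4 and 44.4 CPM in cuprizone Het, against 44.7 to 65.4 CPM in naive Het (-0.68, adjusted p = 0.0717).

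Old Het microglia were compared with the adult Het libraries 12 and 13 of the same set, which also served the comparison with KO. All 8 genes had a lower mean in old mice, and 5 were called lower, where 2.25% of all genes were. Gpr165 had 0.785, 11 and 3.14 CPM in old Het, against 41.2 and 49.4 CPM in adult Het (-3.17 ± 0.50, adjusted p = 1.48e-05). Cebpd had 25.1, 40.1 and 36.9 CPM in old Het, against 90.3 and 85.1 CPM in adult Het (-1.36 ± 0.20, adjusted p = 5.71e-06), and Siglece 28.2, 50.9 and 34.4 CPM, against 91.2 and 83.4 CPM (-1.21 ± 0.19, adjusted p = 1.05e-05). Gimap6 (-1.27 ± 0.35, adjusted p = 0.0184) and Clec4a3 (-0.93 ± 0.19, adjusted p = 0.000836) also fell, and in these 5 genes and Klhdc8b all old libraries were below both adult ones, as in 16.9% of all genes.

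The Tmem176 pair was not called with age. Tmem176a had 19.0, 31.7 and 53.6 CPM in old Het, against 43.1 and 44.5 CPM in adult Het (-0.33 ± 0.34, adjusted p = 0.747), and Tmem176b 102, 181 and 280.5 CPM in old Het, against 284 and 273 CPM in adult Het (-0.57 ± 0.28, adjusted p = 0.308). Old replicate 3 reached the adult range for both, while old replicate 1 was the lowest of the 3 for each of the 8 genes. Klhdc8b had 8.14, 14.4 and 9.23 CPM in old Het, against 30.9 and 35.0 CPM in adult Het, and was not called (-1.63 ± 0.57, adjusted p = 0.0846). Uqcrfs1 had 7.01 to 13.1 CPM in old Het, against 11.4 to 12.7 CPM in adult Het, and was not called (adjusted p = 0.762). With only these 5 libraries fitted, none of the 8 was called, and without 1 library, whether old replicate 1 or 3 or adult Het 12 or 13, Gimap6 was not (adjusted p of 0.0503 to 0.276). The microglial markers summed to 11837 to 14027 CPM in old Het, against 19730 to 22613 CPM in adult Het, and 8 of the 11 were called lower. Border macrophage markers summed to 610.5 to 1001 CPM in old Het, against 1029 to 1280 CPM in adult Het, and monocyte markers to 6.90 to 12.2 CPM, against 17.5 to 66.1 CPM. The part of these in the fall of the 5 genes was not tested.

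**Figure D4:**
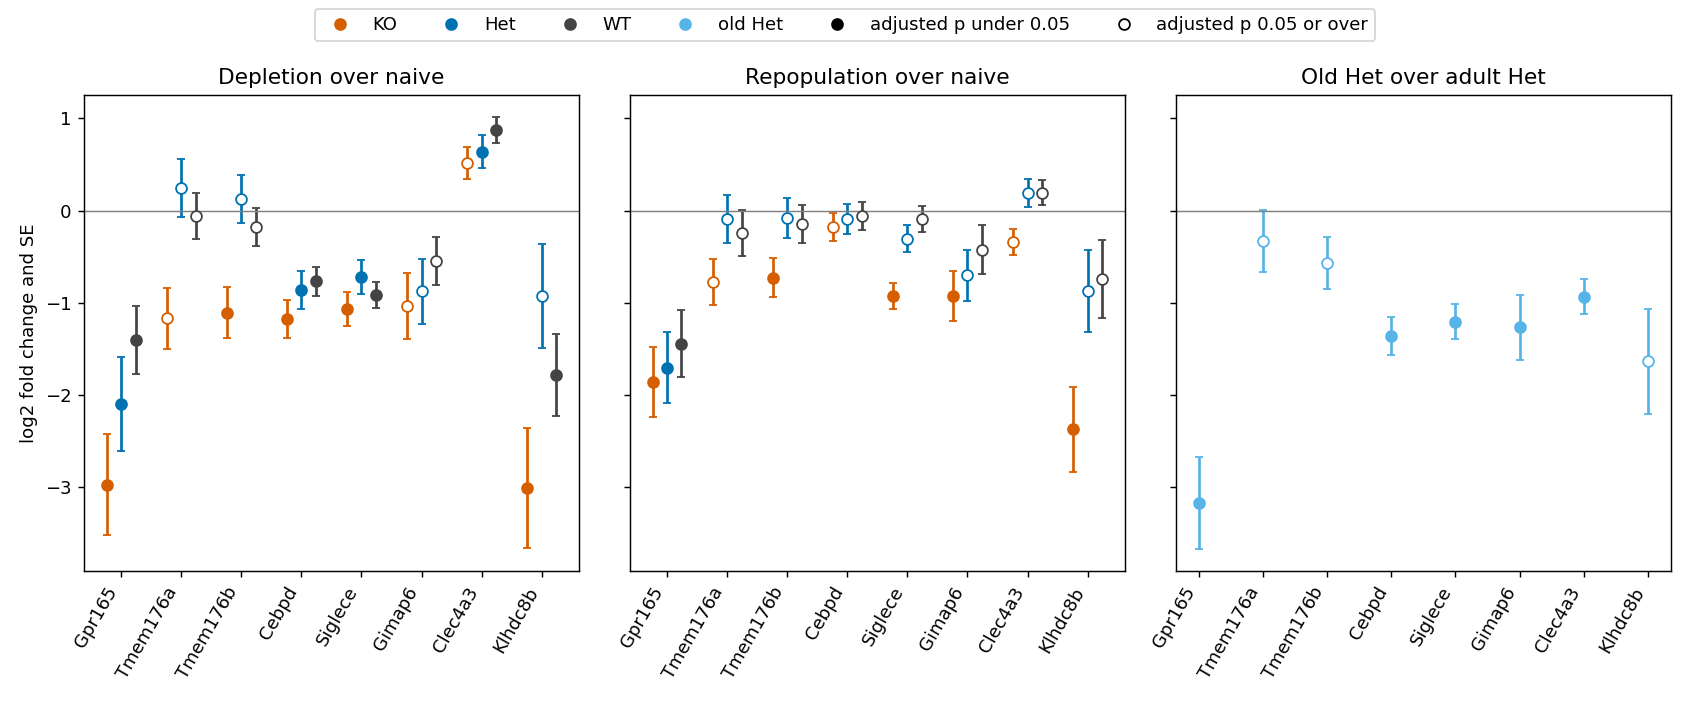
Log2 fold change and standard error of each gene at depletion over naive, repopulation over naive (KO, Het and WT) and in old over adult Het; filled points have an adjusted p under 0.05. Clec4a3 is above 0 at depletion in all 3 genotypes (0.51 to 0.88), Gpr165 is below 0 in every panel, and at depletion and repopulation Tmem176a and Tmem176b are between -0.24 and 0.25 in Het and WT and between -1.17 and -0.73 in KO.

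Relatives of the 8 genes were taken from lists of families and receptor groups, and few of them were called with KO. Of the 8 other Siglec genes listed, 7 were tested, and Siglecf was lower in KO at repopulation (-1.30 ± 0.24 over WT, edgeR adjusted p = 0.000208) and higher in old Het (1.10 ± 0.32, adjusted p = 0.0254). Cd33 (0.39 ± 0.10, adjusted p = 0.00662) and Cd22 (1.00 ± 0.35, adjusted p = 0.0452) were higher in KO after cuprizone, opposite to Siglece, and Siglec1 was lower in KO than in Het at repopulation (-1.46 ± 0.38, adjusted p = 0.0127). Siglecg was called lower in KO 6 to 11 (-3.33 ± 0.75, adjusted p = 0.00136), where Het 6 stood far above the other Het libraries. In the lectin receptor cluster, 6 of 8 others were tested, and Clec4b1 was called lower in KO 6 to 11 (adjusted p = 0.00539) at counts too low for a fold. Clec4a2, an ITIM receptor of the same cluster as Clec4a3, was the member called lower in KO in naive replicates 1 to 5 (-0.73 ± 0.18 over WT, adjusted p = 0.0145), at depletion (-0.98 ± 0.25 over WT, 0.0272) and at repopulation (-1.72 ± 0.20 over WT, 2.78e-08), and in old Het (-0.95 ± 0.25, 0.0142). It was not called in naive 6 to 11 (-0.37, 0.115), in naive 12 and 13 (-0.73, 0.351) or after cuprizone (-0.54, 0.0566).

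Among the 11 other inhibitory receptors tested, Clec4a2 and Fcgr2b, the inhibitory Fc receptor for immunoglobulin G, were the 2 called lower in KO than in WT in naive libraries, at depletion and at repopulation. Fcgr2b was lower by smaller amounts (-0.40 ± 0.08, -0.61 ± 0.11 and -0.78 ± 0.09 over WT, adjusted p = 0.00247, 0.000809 and 1.41e-08) and was not called after cuprizone (0.07). Of the 15 other G protein-coupled receptors of microglia, Gpr183, a receptor for oxysterols, was the 1 called lower in KO 12 and 13 (-0.85 ± 0.20, adjusted p = 0.0306). It was also lower in KO 6 to 11 (-0.61 ± 0.11, 0.000125) and at repopulation (-1.02 ± 0.14 over WT, 1.17e-06), while the sphingosine phosphate receptor S1pr1 was higher in both (0.62 ± 0.13, 0.000708, and 1.33 ± 0.17, 1.15e-07).

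All 6 of the other GIMAP genes tested were below 0 in KO over WT in naive libraries (median -0.89), at depletion (-0.50) and at repopulation (-1.02), where medians of all genes were between 0.00 and 0.03. Of them, Gimap9 was the 1 called lower in KO 6 to 11 (-1.10 ± 0.27, adjusted p = 0.0039) and at repopulation (-1.34 ± 0.35 over WT, 0.0121), and Gimap1 the 1 called lower in old Het (-1.29 ± 0.40, 0.0459). Not every GIMAP gene was below 0 over Het. In KO 6 to 11 Gimap4 was at 1.05 ± 0.99 and Gimap3 at 0.90 ± 1.21 over Het, with errors too wide to read a direction. The 9 other MS4A genes tested had medians of -0.77 in naive KO over WT, with 9 of 9 below 0, and of -1.14 at repopulation, with 7 of 9. Of them, Ms4a6b was lower in KO 6 to 11 (-0.83 ± 0.21, 0.00461) and, with Ms4a6c, at repopulation (-1.14 ± 0.26 and -1.09 ± 0.28 over WT, 0.00376 and 0.0122). Of the 4 other C/EBP genes tested, none was called lower in KO at repopulation, where Ddit3 (0.92 ± 0.21, 0.00445) and Cebpg (0.62 ± 0.16, 0.0111) were higher over WT, the opposite direction to Cebpd. After cuprizone Cebpa (-0.94 ± 0.16, 2.15e-05) and Ddit3 (-1.04 ± 0.19, 9.79e-05) were lower in KO, the same direction as Cebpd, and Ddit3 was lower in KO 6 to 11 too (-0.54 ± 0.17, 0.0259). Of the 7 other Klhdc genes tested, Klhdc10 was called, as higher, in KO 6 to 11 (0.50 ± 0.17, 0.039) and at repopulation (0.71 ± 0.21 over WT, 0.0379). These p-values are adjusted by edgeR over all genes tested.

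Within groups and sets, the levels of the 8 genes went together to different extents. Pearson's r of log2 CPM, after the mean of each group in each set was removed, ran from 0.07 to 0.91 over the 28 pairs in 64 libraries, with a median of 0.31. Tmem176a and Tmem176b had r = 0.91, and Gpr165 and Siglece 0.61. Without naive KO 1 and old replicate 1, the 28 values ran from -0.13 to 0.87 with a median of 0.13, so much of the spread in common came from those 2 libraries. The Tmem176 pair still had 0.87. These are descriptions: the pairs share libraries, depth and scaling.

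**Figure D5:**
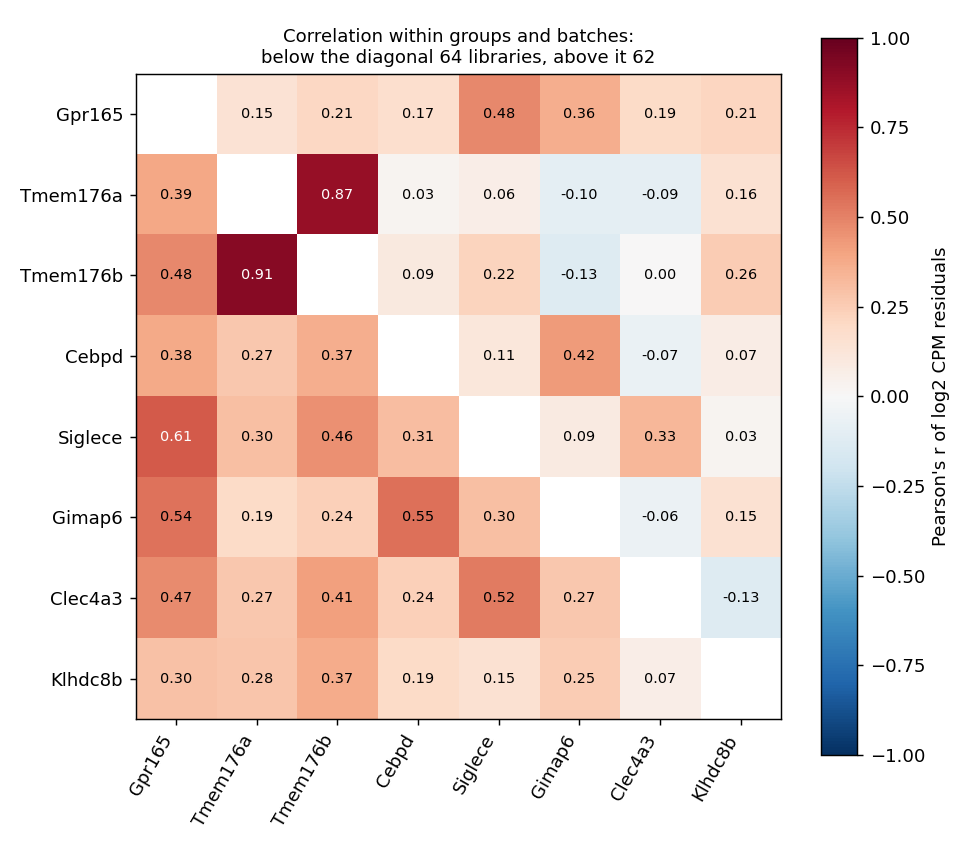
Pearson's r between each pair of genes over log2 CPM with group and set means removed, in all 64 libraries (below the diagonal) and in 62 without naive KO 1 and old Het 1 (above it). Tmem176a and Tmem176b keep 0.91 and 0.87, while most other pairs drop toward 0 above the diagonal.

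The genes outside the group with the most similar pattern were sought by the same r among 10399 genes. Tmem176b was closest to Cd34 (0.75, and 0.71 without those 2 libraries), and Gpr165 to Abcg3 (0.75, and 0.68) and Il7r (0.74, and 0.66). Siglece was closest to Ptgs1 (0.72, and 0.70) and C1rl (0.67, and 0.63). Cebpd was closest to Trf (0.66, and 0.60), Tmem176a to Gusb (0.65, and 0.57), Clec4a3 to Gbp7 (0.62, and 0.44), Gimap6 to its neighbour family member Gimap1 (0.60, and 0.48) and Klhdc8b to AW146154 (0.53, and 0.54). Of the genes beside the 8 on their chromosomes, Gpnmb, 189475 bp from Tmem176a, was higher in KO 6 to 11 (2.41 ± 0.67, edgeR adjusted p = 0.0102), the opposite direction to the Tmem176 pair.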

How the data were processed

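RNA of sorted microglia was measured in 64 libraries. The authors deposited 1 raw count per gene and library, whole numbers with no normalization. Per the labels' protocols a stranded kit for total RNA was used, with single-end reads from a NextSeq 500 for untreated KO and WT and a NextSeq2000 for the rest. The build was GRCm38 and the tools were Salmon 1.5.2, STAR 2.6.1d, Trim Galore 0.6.7 and bcl2fastq 2.20, per the submitters' processing notes; which of them gave the counts, and with which strand setting, is not given in the sources used here. Kits that amplify a few nanograms of RNA make low counts noisy, so genes with few counts carry wide errors.

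Counts were scaled by TMM and fitted with edgeR 4.0.16 (glmQLFit and glmQLFTest, R 4.3.3) in 1 model of all 64 libraries with 1 mean per group and set of libraries. Genes were kept by filterByExpr (minimum count 10, minimum total 15), leaving 18413; 12089 of 45708 had 0 counts everywhere. Tests were two-sided, with Benjamini-Hochberg adjustment over all genes tested and a threshold of 0.05. A gene is called when it passes. CPM are counts per M of the TMM-scaled library. Errors of log2 fold changes are standard errors. Total counts were 2.70 to 24 M (median 11.9), least after cuprizone, where 3 counts are 0.758 CPM in 1 library. No 2 libraries of a group agreed within sampling noise. The script was tested on simulated data.

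The 8 genes, the family and marker lists and the division of libraries into sets were chosen with earlier results of these data known. 1 gene of the microglial marker list is not reported here. Genes named are the 8, Uqcrfs1, members of the lists, neighbours on the chromosome and, for each of the 8, the most similar genes by Pearson's r of log2 CPM (prior count 2, mean log2 CPM of at least 1, no Gm-numbered or Rik symbols). Gene positions are from GENCODE M21 and promoters from RefSeq. Alternatives were DESeq2 (1.42.0) and its size factors, no filter, no sets, further division of the naive set, and sex as a covariate. Others were the replicate number as a block, only the libraries compared, and each library of the smaller groups left out in turn. No library of KO naive 6 to 11, Het naive 5 to 11 or cuprizone KO was left out.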

Additional observations from a re-analysis of the deposited data

Results flagged for a closer look

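Within groups of 4 to 10 libraries, 4 of 88 sets of values had 1 library whose gap to its nearest neighbour was above Dixon's critical value, where chance gives about 1 in 20. Gimap6 had 20.5 CPM in naive KO 1, against 10.0 to 10.2 CPM in KO 2 to 5, in the library that was the highest KO of its set for all 8 genes. Gimap6 had 16.4 CPM in Het repopulation 3, against 21.6 to 22.5 CPM in the other 3 libraries. Klhdc8b had 26.6 CPM in WT depletion 3, against 14.1 to 15.5 CPM in the other 3. Tmem176b had 391 CPM in Het repopulation 4, against 369 to 371 CPM in the other 3, a small difference among close values. No explanation was tested for any of these.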

How the results depend on the processing

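Values here are medians of the log2 fold changes of the 8 genes. In the comparisons of KO with Het or WT that chose them, all 8 were below 0 in 111 of 111 fits run, the fits as reported among them. Of all alternatives other than leaving out 1 library, 158 medians moved by less than the spread between replicates and 14 moved further. All but 2 of those 14 came from fitting 1 mean per group over every naive library, without the sets. KO was then at -1.67 over WT and -1.21 over Het in naive libraries (for replicates 6 to 11 and for 12 and 13 alike), and Het at -0.63 over WT. Depletion over naive became -0.22 in Het, repopulation over naive -0.28 in KO (Tmem176b alone 0.049, adjusted p = 0.926) and 0.13 in Het, and cuprizone over naive -0.71 in KO and -0.73 in Het. The changes of the KO difference became -0.18 at depletion, 0.039 at repopulation and -0.10 after cuprizone. Without the sets, depth and non-coding share enter those comparisons. Dividing naive replicates 1 to 5 further moved Het over WT to 0.086 and repopulation over naive in Het to -0.36, and left none of the 8 called in KO over Het, or in Het at depletion or repopulation over naive. With the replicate number as a block, cuprizone over naive in KO was at -0.12; that value, Het over WT with the further division and 4 of the values without the sets were the 6 medians that changed sign. Leaving out 1 library gave -2.04 to -1.66 for KO over Het and -2.01 to -1.71 for KO over WT at depletion, -0.18 to 0.094 for Het over WT at depletion, and -0.75 to -0.56 in WT and -1.03 to -0.57 in Het for depletion over naive. Dividing the cuprizone libraries by non-coding share, chosen after seeing the data, gave -1.34 for KO over Het and 0.13 for the change of the KO difference.

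Same-numbered libraries of a set did not in general deviate together (median r -0.01 over 127 pairs, with 19 over 0.1). Pairs with other numbers had a median r of 0.00 over 464 pairs, with 64 over 0.1. The check pools genotypes and treatments, so it cannot decide whether numbers pair libraries within 1 condition. With the replicate number as a block, the median of KO over Het in naive 12 and 13 was -1.96 and that of old over adult Het -1.18, where Gimap6 was not called. At depletion 5 of the 8 were called in KO over Het with the block, against 8 without it. Without the sets, 3 of the 8 were called in Het over WT in naive libraries and 3 and 3 for cuprizone over naive in KO and Het, 2 at depletion and 1 at repopulation over naive in KO, and 2 at repopulation over naive in Het.

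Of all genes tested, 0.57% were called in KO over Het in naive 12 and 13 as fitted, 2.11% by DESeq2, 1.2% with the block and 1.19% with only the libraries compared. For old over adult Het these shares were 5.37% as fitted, 8.28% by DESeq2 and 0.0449% with only the libraries compared. For KO over Het they were 2.73%, 5.35% and 6.23% in naive 1 to 5, 0.511%, 1.86% and 0.0% at depletion and 4.62%, 7.49% and 14.7% at repopulation. With only the libraries compared they were 7.16% in the later naive set, against 13.7% as fitted, and 9.68% after cuprizone, against 14.0% as fitted. Few libraries at depletion and few counts after cuprizone limit what could be detected.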
